A study of Mus musculus with 12 samples.

Results

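The data described here are the control arrays of 2 experiments on mouse embryonic stem cells (mESCs), taken by their labels: the 3 arrays of shcontrol_B and the 3 arrays of shcontrol_A, 6 of the 12 arrays of the series. Both groups were the male line E14.wt on the 129P2/OlaHsd background and received the same non-target small hairpin RNA (shRNA) from a pLKO.1 puro lentivirus. The study grew the cells on CD1 feeder cells and gelatine with foetal calf serum and leukemia inhibitory factor, passaged them to be feeder-free, and selected the infected cells with puromycin. In experiment B the controls accompanied 3 arrays whose shRNA targets the protein named Nsl1 in the study (shNsl1_B), and in experiment A 3 arrays whose shRNA targets Msl1 (shMsl1_A). RNA was hybridised to Affymetrix Mouse Gene 2.0 ST arrays, and the deposited values are log2 signals of 41345 probe sets. The methods call the replicates independent and biological. The labels are silent on whether each array came from its own culture, and all p-values refer to the spread among these arrays, which may be technical. Nothing in the labels distinguishes the groups apart from the letter of the experiment, so whatever differed between the experiments (culture, virus, RNA preparation or array processing) cannot be told apart. In all of these groups the measured cells came from 1 line, and a lower signal can mean less RNA per cell or fewer cells of a type.

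Mouse embryonic stem cells cultured in serum and leukemia inhibitory factor form a mixed population. Cells move between a naive state, marked by factors such as Klf4, Esrrb and Nanog, and a state closer to the post-implantation epiblast, and some leave toward endoderm or mesoderm. A rare fraction switches on genes of the early cleavage embryo. These cells divide fast with a short G1 phase and transcribe large amounts of histone genes during S phase. Fibroblast feeder cells, which secrete collagens and other matrix proteins, may persist for a time after passage.

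The targeted genes were examined first. Msl1, which encodes a scaffold protein of the MSL complex (male-specific lethal), had log2 signals of 8.84, 8.64 and 8.79 on the shcontrol_B arrays, against 8.56, 6.90 and 8.62 on the shcontrol_A arrays. The library labelled shcontrol_A replicate 2 therefore stood below every other control array, while the knockdown arrays were at 9.17, 9.02 and 9.0 in shNsl1_B, against 6.77, 9.18 and 7.64 in shMsl1_A. Among the arrays of experiment A, the libraries labelled shcontrol_A replicate 2 and shMsl1_A replicate 2 thus went against their labels. The groups did not overlap, the mean difference was 0.73 with this array (0.17 without it), with p = 0.1 in a two-sided exact permutation test, the lowest value possible for 3 arrays against 3. Kansl1, which encodes the protein called Nsl1 in the study, had 9.14, 9.36 and 9.52 on shcontrol_B arrays, against 9.06, 9.20 and 9.16 on shcontrol_A arrays, and the groups overlapped. On the knockdown arrays it had 8.47, 8.92 and 9.30 in shNsl1_B, against 9.07, 9.49 and 9.39 in shMsl1_A. A second, dimmer probe set of Kansl1 had 7.33, 7.30 and 7.36 in shcontrol_B, against 7.35, 7.32 and 7.36 in shcontrol_A, and 6.45, 6.56 and 6.71 in shNsl1_B, against 7.39, 7.39 and 7.27 in shMsl1_A, with the 3 shNsl1_B arrays below the other 9. The counts, the medians of the main lists and the leading genes are given with and without shcontrol_A replicate 2. As for the cell type, Pou5f1 (9.25 to 9.42 in shcontrol_B, 8.86 to 9.04 in shcontrol_A), Sox2 (11.02 to 11.58 in shcontrol_B, 11.49 to 11.68 in shcontrol_A) and Nanog (11.69 to 11.86 in shcontrol_B, 11.90 to 12.18 in shcontrol_A), the central pluripotency factors, were measured on every control array, all above the array medians. Uty, a gene of the Y chromosome, was at 8.66 to 9.25 in shcontrol_B and 8.64 to 8.93 in shcontrol_A, and Xist, the RNA of the inactive X chromosome, at 4.95 to 5.25 in shcontrol_B and 5.01 to 5.07 in shcontrol_A.

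In the median over pairs, the 2 control groups were further from each other than the arrays of a group were, but not for every pair. The distance between a pair of arrays was taken as the median absolute log2 difference over all probe sets. It was 0.16 to 0.22 among the 3 shcontrol_B arrays and 0.13 to 0.15 among the 3 shcontrol_A arrays, and 0.19 to 0.30 over the 9 pairs that join the experiments. shcontrol_B replicate 1 was 0.19, 0.23 and 0.21 from the 3 shcontrol_A arrays, about as far as from the other arrays of its own group (0.18 and 0.22). Replicate 3 was the most distant, at 0.29, 0.30 and 0.29. Over probe sets at or above the median signal alone, shcontrol_B replicate 1 was 0.18, 0.25 and 0.21 from shcontrol_A. From its own group it was 0.25 and 0.32 there. The shcontrol_B arrays were also more variable, with a mean SD of 0.22 against 0.16 in shcontrol_A, and 63.6% of probe sets had the larger SD in shcontrol_B. Without shcontrol_A replicate 2 the mean SD of shcontrol_A was 0.13.

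**Figure D1:**
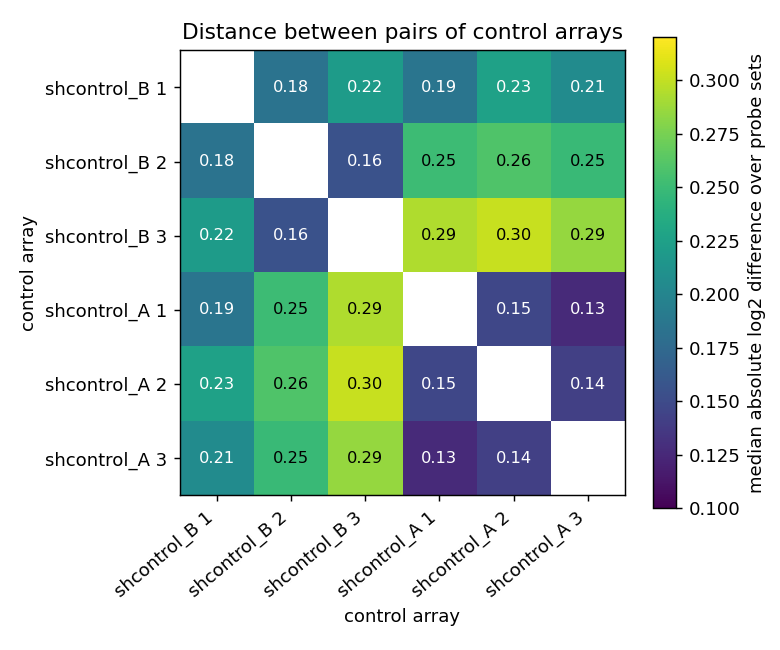
Each cell gives the median absolute log2 difference over all probe sets between a pair of control arrays, with shcontrol_B before shcontrol_A on both axes. The shcontrol_A arrays lie 0.13 to 0.15 apart, and shcontrol_B replicate 1 lies closer to shcontrol_A than replicates 2 and 3 do.

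Across all probe sets, limma called 2238 of 41345 (5.41%) different between the controls at an adjusted p under 0.05. Of these, 839 (2.03% of all probe sets) were higher and 1399 (3.38%) were lower in shcontrol_B. The median absolute difference of the called probe sets was 0.64, and 238 of them differed by 1 log2 unit (2-fold) or more. At an unadjusted p under 0.05 the count was 12100, or 29.3%. Among all probe sets, all shcontrol_B arrays lay above all shcontrol_A arrays for 13.9% and below them for 22.0%, or for 17.0% and 26.7% without shcontrol_A replicate 2. The smallest adjusted p was 0.0276, so these calls lie close to the threshold, and the count changed with single arrays. Without shcontrol_A replicate 2 limma called 0 probe sets (smallest adjusted p 0.112; 8826, or 21.3%, at an unadjusted p under 0.05), and it also called 0 without shcontrol_A replicate 1 or 3 and without shcontrol_B replicate 2 or 3, but 8382 without shcontrol_B replicate 1. With the replicate number as a block limma called 0, with 12113 at an unadjusted p under 0.05. In the following, "called" refers to the fit of all 6 control arrays.

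With 1 probe set per gene, 22180 genes were measured, of which 335 (1.51%) were called higher and 919 (4.14%) lower in shcontrol_B. Over all genes 39.9% of the differences were above 0 and 60.1% below, and the median was -0.07. Of the gene lists examined, that of replication-dependent histones had the lowest median. It had 27 measured members of 65, of which 6 were called lower (22.2%, against 4.14% of all genes) and 0 higher. All 27 differences were below 0, with a median of -0.66 (-0.63 without shcontrol_A replicate 2). For 16 of the 27 all shcontrol_B arrays lay below all shcontrol_A arrays, against 25.8% of all genes. The called members with the largest differences were linker histones, which bind the DNA between nucleosomes. H1f2 had log2 signals of 9.42, 8.61 and 8.92 in shcontrol_B, against 10.58, 10.37 and 10.35 in shcontrol_A. It fell by 1.45 on the log2 scale (SE 0.21, limma adjusted p = 0.0288), and without shcontrol_A replicate 2 the difference was -1.48. H1f3 had 6.40, 5.80 and 5.94 in shcontrol_B, against 7.45, 7.26 and 7.24 in shcontrol_A, a difference of -1.27 (SE 0.17, adjusted p = 0.0288). In both genes shcontrol_B replicate 1 was the array nearest to shcontrol_A. That it lay below all shcontrol_A arrays was fixed by the choice of these genes without overlap. H1f6, the linker histone of the testis and no member of the list, had 5.24, 4.54 and 4.18 in shcontrol_B, against 6.25, 6.68 and 6.13 in shcontrol_A, a difference of -1.70 (SE 0.29, adjusted p = 0.0360).

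The start regions of these 3 linker histone genes are shown because the genes lie in 1 cluster on chromosome 13 and were all called lower between the controls. On the knockdown arrays they did not all behave alike. Between shNsl1_B and shMsl1_A the differences were -1.35 (SE 0.33) for H1f2, -0.96 (SE 0.32) for H1f3 and -0.48 (SE 0.69) for H1f6. Over the 12 arrays the experiments overlapped for H1f6 only. The 130 bases before each start, from RefSeq promoters of build GRCm38.p6, plus strand, are written 5′ to 3′ with capitals for 2 motifs known from histone promoters, the H1 box (AAACACA) and the CCAAT box (CCAAT), both searched on both strands and not overlapping here.
H1f2, chr13:23738677-23738806: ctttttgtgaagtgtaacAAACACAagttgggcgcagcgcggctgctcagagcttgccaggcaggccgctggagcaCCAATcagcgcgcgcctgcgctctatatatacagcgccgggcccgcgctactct
H1f3, chr13:23554902-23555031: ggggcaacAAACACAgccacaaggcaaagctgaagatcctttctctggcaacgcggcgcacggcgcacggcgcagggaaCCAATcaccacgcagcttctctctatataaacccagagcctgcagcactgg
H1f6, chr13:23695681-23695810: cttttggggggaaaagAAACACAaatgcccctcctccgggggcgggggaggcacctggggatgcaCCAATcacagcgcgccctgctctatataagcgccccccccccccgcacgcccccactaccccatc
The H1 box began 112, 122 and 114 bases before the start of H1f2, H1f3 and H1f6, and the CCAAT box 54, 51 and 65 bases before it. Of 32817 promoter windows of the same length, 2.98% held the H1 box, 22.4% the CCAAT box and 0.582% both. Of the 26 histone genes with a window, 6 held both motifs, among them 2 of the 21 that encode no linker histone. The linker histone gene H1f1, also on chromosome 13, held the CCAAT box but no H1 box. H1f5, named after its values were seen, was also among the 6, and its signals of 11.55, 10.70 and 10.57 in shcontrol_B overlapped with 11.25, 11.05 and 11.19 in shcontrol_A. A match to these letters is a description of the window and not a site.

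The other called histone genes encode core histones, which form the nucleosome. H2bc22 had 4.59, 4.49 and 4.53 in shcontrol_B, against 5.25, 5.29 and 5.09 in shcontrol_A, a difference of -0.67 (adjusted p = 0.0288). H4c17 (-0.90) and H2bc21 (-0.66) were called lower as well, with adjusted p of 0.0409 and 0.0411. Close paralogs make up this family, so a signal may be shared between members. As a mean over the list, the 3 shcontrol_B arrays stood at 7.80, 7.13 and 7.01, against 8.05, 8.11 and 7.89 for shcontrol_A. Replicate 1 was thus nearer to shcontrol_A than to the other shcontrol_B arrays. Within the list the spread of shcontrol_B was widest for H2bc1, the H2B of the testis, at 9.29, 7.42 and 6.21, against 9.15, 9.40 and 9.13 in shcontrol_A. Its groups overlapped through replicate 1, and it was not called (adjusted p = 0.196).

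Among genes of cell division, calls were above the share over all genes in 1 of 2 lists. Of 49 measured genes for the G1 to S transition and DNA replication, 4 were called lower (8.16%, against 4.14% of all genes) and 0 higher, 46 differences were below 0, and the median was -0.31 (-0.33 without shcontrol_A replicate 2 and -0.18 after quantile normalisation of the 6 control arrays). Ccnd3, which encodes cyclin D3, a partner of the kinases that drive cells out of G1, had 10.24, 9.58 and 9.75 in shcontrol_B, against 11.22, 11.23 and 11.10 in shcontrol_A. It was 2.50-fold lower (log2 difference -1.32, SE 0.18, limma adjusted p = 0.0288). Gins4 and Gins1, subunits of the GINS complex of the replicative helicase, differed by -0.64 (adjusted p = 0.0320) and -0.52 (adjusted p = 0.0476), and Prim1, the catalytic subunit of DNA primase, by -0.53 (adjusted p = 0.0411). For Pola2, the second subunit of DNA polymerase alpha, the difference of -0.57 missed the threshold (adjusted p = 0.0551). Of 53 measured genes of G2 and mitosis, 2 were called lower, or 3.77%, which is no more than over all genes, and the list median was -0.17, or -0.06 after quantile normalisation of the 6 control arrays. They were Ube2c, a ubiquitin-conjugating enzyme of the anaphase-promoting complex (10.88, 10.80 and 10.69 in shcontrol_B, 11.46, 11.44 and 11.25 in shcontrol_A), and Sgo1, which protects centromeric cohesin (9.02, 9.04 and 9.11 in shcontrol_B, 9.51, 9.54 and 9.58 in shcontrol_A). In both genes the 3 shcontrol_B arrays lay close together and well below shcontrol_A.

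Genes of mitochondrial translation held more calls by number than any other list examined, though by share the histone list was higher (22.2% called lower). Of 72 measured mitochondrial ribosomal proteins, 13 were called lower (18.1%, against 4.14% of all genes) and 0 higher in shcontrol_B. For 35 all shcontrol_B arrays lay below all shcontrol_A arrays (48.6%, against 25.8% of all genes). The list median was -0.41 (-0.40 without shcontrol_A replicate 2), and the array means were 8.88, 8.65 and 8.50 in shcontrol_B, against 9.08, 9.0 and 9.09 in shcontrol_A. Mrps15, of the small subunit, had 9.86, 9.83 and 9.68 in shcontrol_B, against 10.47, 10.68 and 10.58 in shcontrol_A. Mrpl35, of the large subunit, had 9.77, 9.75 and 9.44 in shcontrol_B, against 10.42, 10.61 and 10.60 in shcontrol_A. Their differences of -0.78 and -0.89, like those of Mrpl19 (-0.74), Mrps17 (-0.83) and Mrpl24 (-0.67), had an adjusted p of 0.0288. Of 69 nuclear genes of oxidative phosphorylation 4 were called lower (5.80%), with a median of -0.24, or -0.14 with quantile normalisation. Atp5pb, of the ATP synthase stalk, had 10.34, 10.43 and 10.33 in shcontrol_B, against 10.86, 10.82 and 10.89 in shcontrol_A, with Ndufa2 (-0.64), Cox7c (-0.63) and Ndufa7 (-0.62) as the others. Of 59 cytosolic ribosomal proteins 5 were called lower (8.47%), with a median of -0.18, or -0.10 with quantile normalisation. Rpl38 had 11.85, 11.68 and 11.82 in shcontrol_B, against 12.43, 12.44 and 12.42 in shcontrol_A, and Rps29, Rps3, Rps13 and Rpl27a differed by -0.98, -0.65, -0.85 and -0.85.

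Calls in the lower direction also fell on enzymes and stress response genes. Of 35 glutathione S-transferases and redox enzymes 4 were called lower (11.4%, against 4.14% of all genes) and 0 higher, with a median of -0.26. Gstm7, a glutathione S-transferase, had 5.77, 5.88 and 5.84 in shcontrol_B, against 6.86, 6.51 and 6.95 in shcontrol_A, and Gstm4 differed by -0.64, Mgst2 by -0.44 and Gstt1 by -0.83. The genes of the Gstm family resemble each other, so their probe sets may share signal. Of 46 genes of the unfolded protein response and ATF4 targets 3 were called lower (6.52%), and the list median was -0.15, but -0.08 without shcontrol_B replicate 3 and -0.04 with quantile normalisation. The called genes were Atf4 (-0.60), the transcription factor of the integrated stress response, its relative Atf5 (-1.02) and Slc7a11 (-0.65), a cystine transporter. Of 25 heat shock and chaperone genes 2 were called lower (8.0%). They were Hspb1 (10.21, 10.20 and 10.12 in shcontrol_B, 10.70, 10.82 and 10.63 in shcontrol_A), a small heat shock protein, and Bag3 (8.29, 8.31 and 8.14 in shcontrol_B, 8.79, 8.86 and 8.68 in shcontrol_A), a cochaperone that binds Hsp70.

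**Figure D2:**
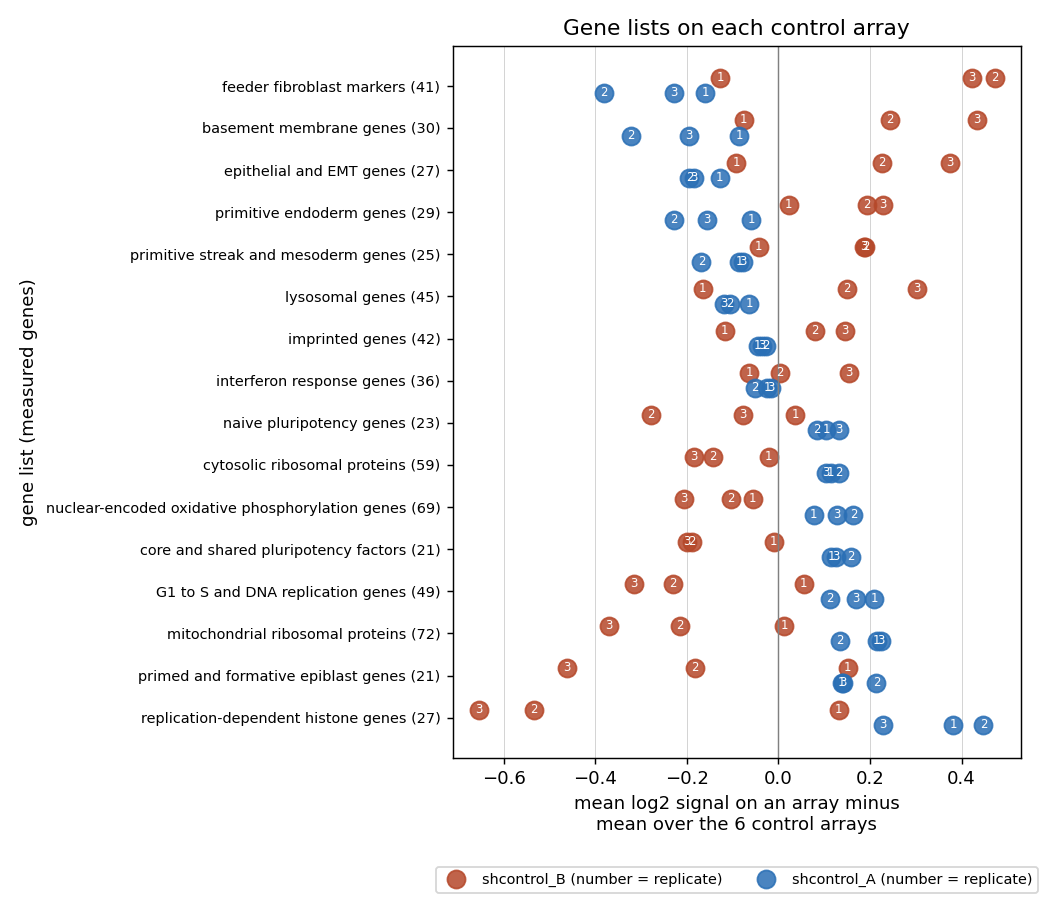
Each point is the mean log2 signal of a gene list on 1 control array minus its mean over the 6 control arrays, with shcontrol_B drawn above shcontrol_A and the replicate number in the point. For matrix and fibroblast genes replicates 2 and 3 of shcontrol_B lie on the right, for histone, mitochondrial and replication genes on the left, and replicate 1 of shcontrol_B lies nearer to shcontrol_A than replicates 2 and 3 do in each of these lists.

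Pluripotency genes held few calls, and most differences of the core list were below 0. Of its 21 differences 18 were below 0, against 60.1% of all genes, and 3 above. For 8 all shcontrol_B arrays lay below all shcontrol_A arrays (38.1%, against 25.8% of all genes). For 1 they lay above (4.76%, against 12.7%). Of 21 measured core and shared factors 1 was called lower (4.76%, against 4.14% of all genes) and 0 higher, with a median of -0.28, or -0.14 after quantile normalisation of the 6 control arrays. The called gene was L1td1, an RNA-binding protein of stem cells, at 9.52, 9.26 and 9.13 in shcontrol_B, against 9.86, 9.88 and 9.94 in shcontrol_A. Pou5f1, which encodes Oct4, had 9.42, 9.32 and 9.25 in shcontrol_B, against 9.03, 8.86 and 9.04 in shcontrol_A, without overlap. Its difference of 0.35 (SE 0.10) had an adjusted p of 0.0766. Sox2 (-0.27, adjusted p = 0.287) and Nanog (-0.24, adjusted p = 0.191) did not pass the threshold. Dppa2 (-0.62), Gdf3 (-0.32) and Utf1 (-0.92) lay lower in shcontrol_B without overlap and without a call.

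Of 23 naive pluripotency genes 1 was called lower (4.35%, against 4.14% of all genes) and 0 higher. Klf2, a Krüppel-like factor of the naive network, had 8.96, 8.21 and 8.49 in shcontrol_B, against 9.62, 9.51 and 9.37 in shcontrol_A, a difference of -0.95 (SE 0.20, adjusted p = 0.0480). Klf4, of the same family, had 9.19, 8.82 and 9.24 in shcontrol_B, against 9.43, 9.60 and 9.49 in shcontrol_A, with an adjusted p of 0.103. Esrrb, an orphan nuclear receptor of the same network, lay the other way, at 8.28, 7.87 and 8.20 in shcontrol_B, against 7.62, 7.38 and 7.55 in shcontrol_A. Its difference was 0.60 (SE 0.13) and its adjusted p 0.0546. Naive factors thus lay on both sides, and the list median was -0.19 (-0.16 without shcontrol_A replicate 2 and -0.08 without shcontrol_B replicate 2).

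Of 21 primed and formative epiblast genes 2 were called lower (9.52%, against 4.14% of all genes) and 1 higher (4.76%, against 1.51%). The median was -0.56, but -0.34 without shcontrol_B replicate 3 and -0.79 without shcontrol_B replicate 1. Etv5, an ETS factor downstream of fibroblast growth factor signalling, had 9.99, 9.44 and 9.44 in shcontrol_B, against 10.44, 10.79 and 10.48 in shcontrol_A, and Lef1, a transcription factor of the Wnt pathway, had 7.91, 7.72 and 7.64 in shcontrol_B, against 8.34, 8.23 and 8.44 in shcontrol_A. The gene called higher was Fst, which encodes follistatin, a secreted antagonist of activin. It had 8.40, 8.94 and 8.54 in shcontrol_B, against 7.89, 7.37 and 7.62 in shcontrol_A, a difference of 1.00 (SE 0.19, adjusted p = 0.0420), or 0.87 without shcontrol_A replicate 2. Fgf5, the usual marker of the primed epiblast, ranged from 5.09 to 6.70 in shcontrol_B and from 6.61 to 7.36 in shcontrol_A, and the groups overlapped (adjusted p = 0.252). As array means the list stood at 8.18, 7.85 and 7.57 in shcontrol_B, against 8.17, 8.24 and 8.17 in shcontrol_A, with shcontrol_B replicate 1 inside the range of shcontrol_A.

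Genes of the cleavage embryo had a median of -0.44 over 23 measured members, 21 of them below 0 (against 60.1% of all genes). The 1 called lower (4.35%, against 4.14% of all genes) was a provisional gene model. The list means were 6.04, 5.96 and 5.95 in shcontrol_B, against 6.13, 6.60 and 6.42 in shcontrol_A, and shcontrol_A replicate 2 was the highest. Without it the list median was -0.32. Several members are near-identical copies, so their probe sets are not separate measurements. Of 30 germline and meiosis genes 1 was called lower (3.33%, against 4.14% of all genes), with a median of -0.20. Outside both lists, and chosen only for the size of their differences, were 2 called genes known from meiosis. Tex12, a component of the synaptonemal complex, had 4.90, 4.28 and 4.13 in shcontrol_B, against 5.65, 5.91 and 5.67 in shcontrol_A. Mnd1, a factor of meiotic recombination, had 6.85, 6.30 and 6.40 in shcontrol_B, against 7.51, 7.88 and 8.03 in shcontrol_A. Both were called lower (differences of -1.31 and -1.29, adjusted p of 0.0334 and 0.0289).

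Genes called higher in shcontrol_B were fewer. Of the 839 probe sets called higher, 423 had no gene symbol and are not described here. The same was true of 345 of the 1399 called lower, and of 16004 of all 41345 probe sets. Pcdh7, a protocadherin, had 5.28, 6.87 and 7.19 in shcontrol_B, against 4.20, 4.02 and 4.30 in shcontrol_A. The difference was 2.27 (SE 0.47, limma adjusted p = 0.0485), and 2.20 without shcontrol_A replicate 2. The shcontrol_A signals of Pcdh7 lay near the 25th percentile of those arrays (4.26 to 4.29), and no detection call was used here, so the size of this difference and of others that involve such dim signals is uncertain. Ccdc80, a secreted matrix protein, had 5.63, 6.44 and 6.16 in shcontrol_B, against 4.43, 4.07 and 4.42 in shcontrol_A (difference 1.77, SE 0.22, adjusted p = 0.0288). A second, dimmer probe set of Ccdc80 differed by -0.13 and was not called. Cdh11, the cadherin of mesenchymal cells, had 6.43, 7.45 and 7.22 in shcontrol_B, against 5.51, 5.63 and 5.83 in shcontrol_A. Pappa, a secreted protease that cleaves binding proteins of insulin-like growth factors, had 6.20, 6.76 and 6.75 in shcontrol_B, against 5.52, 5.13 and 5.15 in shcontrol_A. Cd274, which encodes the immune checkpoint ligand PD-L1, had 5.59, 6.58 and 6.57 in shcontrol_B, against 5.01, 4.88 and 4.84 in shcontrol_A. In these genes shcontrol_B replicate 1 was the lowest of its group. That it lay above every shcontrol_A array was fixed by the choice of genes without overlap. C1galt1c1 (1.46), the chaperone of an O-glycan synthase, Mical2 (1.38), an enzyme that oxidises actin, and Papss2 (1.12), which makes the sulphate donor for matrix proteoglycans, were called higher too, again with replicate 1 as the lowest of shcontrol_B.

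**Figure D3:**
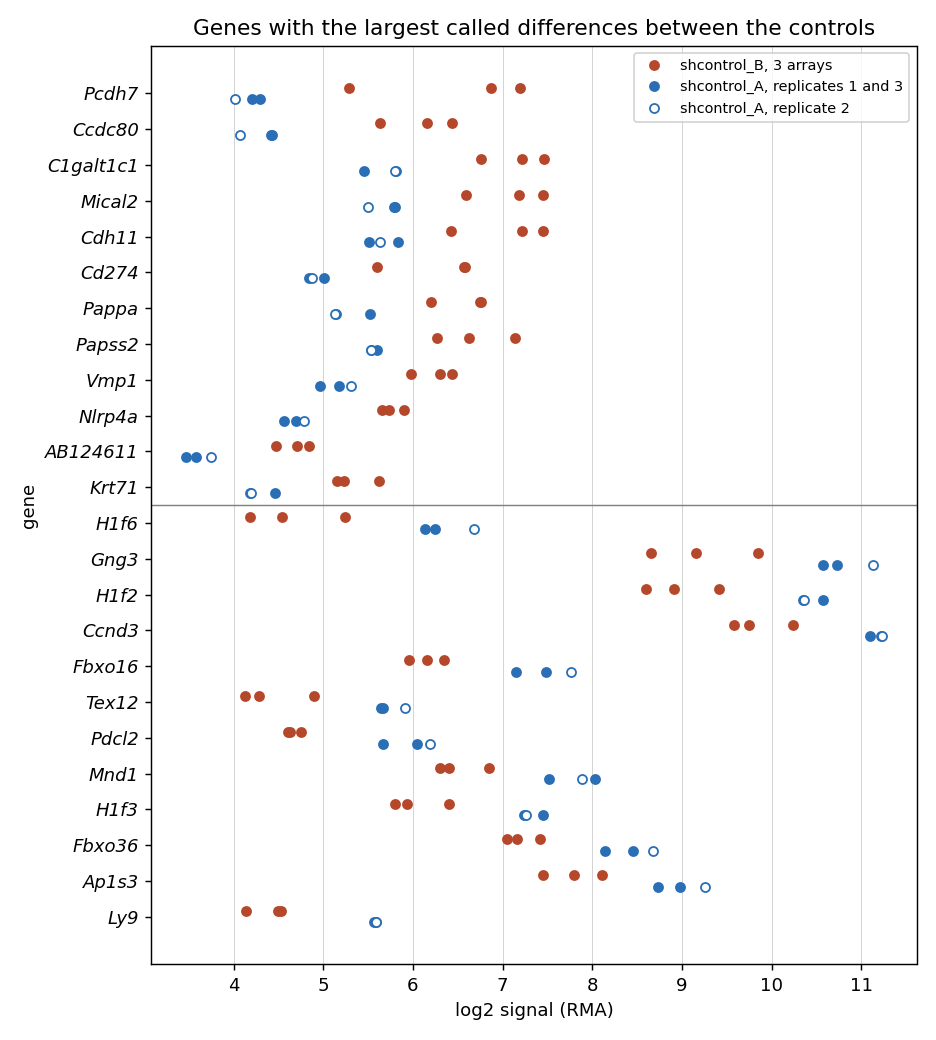
Log2 signals of the 12 genes called higher (top) and the 12 genes called lower (bottom) with the largest differences, 1 point per array, shcontrol_B above shcontrol_A in each line and shcontrol_A replicate 2 as an open point. The genes were chosen so that the groups do not overlap, and Pcdh7 spans 5.28 to 7.19 within shcontrol_B alone.

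Because the cells had been on feeder cells, markers of fibroblasts were read as a whole list. Of 41 measured markers, 34 had a difference above 0 (against 39.9% of all genes) and 7 below. The median was 0.54 (0.48 without shcontrol_A replicate 2), but only 1 was called, in the higher direction (2.44%, against 1.51% of all genes). For 36.6% all shcontrol_B arrays lay above all shcontrol_A arrays, against 12.7% of all genes, and for 7.32% below them, against 25.8%. The list means were 6.76, 7.36 and 7.31 in shcontrol_B, against 6.73, 6.51 and 6.66 in shcontrol_A, so shcontrol_B replicate 1 lay just above the highest shcontrol_A array. The called marker was Col3a1, a fibrillar collagen, at 6.52, 6.98 and 6.99 in shcontrol_B, against 6.18, 5.89 and 6.14 in shcontrol_A (difference 0.76, adjusted p = 0.0492). Postn, which encodes the matrix protein periostin, had 5.70, 6.87 and 7.68 in shcontrol_B, against 4.42, 4.01 and 4.97 in shcontrol_A. Its difference of 2.28 had an adjusted p of 0.0542. Col1a1, the main collagen of fibroblasts, had 8.10, 9.38 and 9.81 in shcontrol_B, against 8.22, 7.28 and 7.88 in shcontrol_A, and its groups overlapped (adjusted p = 0.128). Lum and Dcn, fibroblast proteoglycans named after their values were seen, did not move with these genes: Lum was at 3.40 to 3.77 in shcontrol_B and 3.52 to 3.71 in shcontrol_A, and Dcn at 5.09 to 5.63 in shcontrol_B and 5.13 to 5.40 in shcontrol_A. The part of feeder cells in the results was not tested. Of 14 markers of macrophages and blood cells 1 was called lower (7.14%, against 4.14% of all genes), the complement gene C1qa, at -0.56. The list means were 4.95 to 5.00 in shcontrol_B and 5.05 to 5.09 in shcontrol_A. Of 16 endothelial markers limma called 0 (2 had an unadjusted p under 0.05, 1 in each direction, against 29.3% of all probe sets).

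Lists that share members with the fibroblast markers, or share their tissue, had medians on the same side, but not all of their calls lay there. The basement membrane list (30 measured) had a median of 0.45 (0.30 without shcontrol_A replicate 2 and 0.24 without shcontrol_B replicate 3). Of its differences 27 were above 0, against 39.9% of all genes. Its 1 called gene (3.33%, against 1.51% of all genes) was Col18a1, a collagen of basement membranes. Col18a1 had 9.01, 8.88 and 9.11 in shcontrol_B, against 8.59, 8.56 and 8.41 in shcontrol_A. The epithelial and EMT list had a median of 0.36 and included Cdh11 as its only call (3.70%, against 1.51% of all genes). Zeb1, a transcription factor of the mesenchymal state, had a difference of 0.63 (adjusted p = 0.0530). The contractile and mural cell list (24 measured) had a median of 0.19 and array means that overlapped between the groups. Of its genes 0 were called higher and 1 lower (4.17%, against 4.14% of all genes). The primitive streak and mesoderm list (25 measured) had a median of 0.28, with 0 called higher and 2 lower (8.0%, against 4.14%). Of 29 primitive endoderm genes 2 were called higher (6.90%, against 1.51% of all genes) and 14 did not overlap in that direction (48.3%, against 12.7% of all genes), with a median of 0.31 with or without shcontrol_A replicate 2. The called genes were Fst, given above, and Gata6, the transcription factor that specifies primitive endoderm. Gata6 had 6.22, 6.03 and 5.99 in shcontrol_B, against 5.71, 5.56 and 5.55 in shcontrol_A (difference 0.48, adjusted p = 0.050, just under the threshold). Unlike the matrix genes, Gata6 was highest on shcontrol_B replicate 1. Of 19 BMP pathway genes 1 was called higher (5.26%, against 1.51% of all genes). It was Nog, which encodes the BMP antagonist noggin, at 5.93, 5.90 and 5.92 in shcontrol_B, against 5.40, 5.46 and 5.27 in shcontrol_A.

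The genes with the largest SD within shcontrol_B had low signals on replicate 1 or on replicates 2 and 3. Tmprss2, a membrane serine protease, had 6.11, 8.40 and 9.30 in shcontrol_B, against 5.80, 5.75 and 5.74 in shcontrol_A. Wls, the carrier that brings Wnt proteins to the surface, had 8.0, 10.06 and 10.35 in shcontrol_B, against 7.79, 7.13 and 7.71 in shcontrol_A. Pmp22, a membrane protein known from myelin, had 8.39, 10.68 and 11.12 in shcontrol_B, against 8.46, 7.98 and 8.29 in shcontrol_A. Vnn1, a pantetheinase of the cell surface, had 4.90, 7.04 and 7.67 in shcontrol_B, against 4.80, 4.70 and 4.76 in shcontrol_A. In these genes replicates 2 and 3 of shcontrol_B stood apart, and replicate 1 was near shcontrol_A, and limma called none of them (adjusted p of 0.121, 0.103, 0.141 and 0.141). Over the 1903 probe sets chosen because the mean of shcontrol_B replicates 2 and 3 was 1 log2 unit or more from the shcontrol_A mean, replicate 1 showed a median of 22.9% of that difference, with quartiles of -2.18% and 50.1%. Without shcontrol_A replicate 2 there were 1796 such probe sets, and the median was 19.4%. Read in the same way, with probe sets chosen on the other arrays of the group, replicate 2 showed a median of 96.9% over 821 probe sets and replicate 3 a median of 129% over 437, an alternative chosen after the data were seen.

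Other genes separated the experiments at about the same level on each array. Ly9, a receptor of lymphocytes, had 4.52, 4.50 and 4.13 in shcontrol_B, against 5.57, 5.59 and 5.58 in shcontrol_A (difference -1.20, SE 0.12, limma adjusted p = 0.0276). Pdcl2, a phosducin-like protein known from the testis, had 4.75, 4.60 and 4.63 in shcontrol_B, against 5.66, 6.19 and 6.05 in shcontrol_A. Fbxo36, an F-box protein, had 7.05, 7.17 and 7.42 in shcontrol_B, against 8.14, 8.68 and 8.46 in shcontrol_A. Nlrp4a, of the NLR family, had 5.90, 5.66 and 5.74 in shcontrol_B, against 4.70, 4.78 and 4.56 in shcontrol_A. AB124611 had 4.70, 4.84 and 4.47 in shcontrol_B, against 3.58, 3.75 and 3.47 in shcontrol_A. Vmp1, a membrane protein of autophagy, had 5.98, 6.30 and 6.43 in shcontrol_B, against 5.17, 5.30 and 4.96 in shcontrol_A. For each of these genes shcontrol_B replicate 1 was with its own group, on a side that the choice of genes without overlap had fixed. Fbxo16 (-1.31), Ap1s3 (-1.21), a subunit of a clathrin adaptor, and Gng3 (-1.59), a G protein gamma subunit, were also among the genes called lower with the largest differences, and Krt71 (1.06), a hair follicle keratin, among those called higher.

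The knockdown arrays gave the same comparison of experiments on arrays that the control comparison does not use, although their shRNAs differ too. limma called 1144 of 41345 probe sets (2.77%) between shNsl1_B and shMsl1_A, 369 of them (0.892%) higher and 775 (1.87%) lower in shNsl1_B, and 0 when any 1 of those arrays was left out (6637 to 9321 at an unadjusted p under 0.05). With the replicate number as a block the count was 2611. Of the 839 probe sets called higher between the controls, 94.0% were also higher in shNsl1_B than in shMsl1_A, and of the 1399 called lower 98.4% were also lower. Over all probe sets 44.8% were higher and 55.2% lower. In the same direction 155 higher and 293 lower probe sets were called in both comparisons, 20.0% of the calls of the controls and 39.2% of those of the knockdown arrays, and 0 were called in opposite directions.

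All 6 arrays of experiment B lay above all 6 of experiment A for 1856 probe sets (4.49%) and below them for 3370 (8.15%). Among the calls of the controls this held for 531 of those higher (63.3%) and 992 of those lower (70.9%). These shares are not independent of the calls, which were made on 6 of the same 12 arrays. On the control arrays alone, 13.9% of all probe sets were separated in the higher and 22.0% in the lower direction. Ly9 was at 4.44, 4.47 and 4.44 in shNsl1_B, against 5.69, 5.41 and 5.38 in shMsl1_A (difference -1.04, adjusted p = 0.0324). Nlrp4a was at 6.27, 6.01 and 6.22 in shNsl1_B, against 4.62, 4.23 and 4.66 in shMsl1_A. AB124611 and Pdcl2 were called in the same direction there as well, with differences of 1.13 and -1.29. H1f2 had 9.26, 8.56 and 8.26 in shNsl1_B, against 10.54, 9.74 and 9.83 in shMsl1_A, and its difference of -1.35 had an adjusted p of 0.0859. For these genes the letter of the experiment separated all 12 arrays, though among the control arrays this was fixed by their choice.

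**Figure D4:**
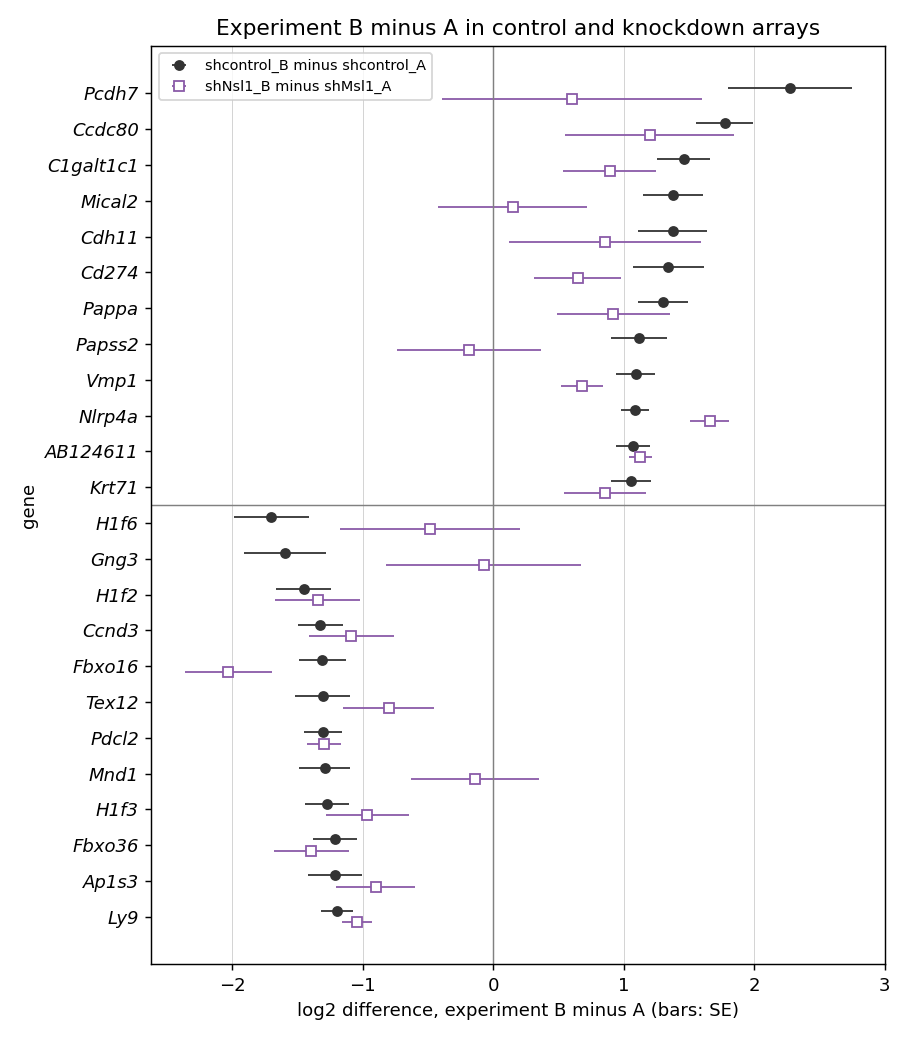
Differences of experiment B minus experiment A on the log2 scale with their SE (limma), for the control arrays (filled) and the knockdown arrays (open), in the 24 genes called with the largest differences between the controls. Nlrp4a, AB124611, Pdcl2 and Ly9 lie on the same side with short error bars in both, while Pcdh7, Mical2, Papss2, H1f6, Gng3 and Mnd1 have knockdown differences smaller than their SE.

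Most genes with a large SD in shcontrol_B followed another order. Tmprss2 had 6.01, 8.24 and 9.29 in shNsl1_B, against 5.49, 10.03 and 9.62 in shMsl1_A, so that replicate 1 was low and replicates 2 and 3 were high in both knockdown groups. Wls (7.83, 10.31 and 10.66 in shNsl1_B, 7.14, 10.50 and 10.21 in shMsl1_A) and Vnn1 (5.12, 7.45 and 8.07 in shNsl1_B, 4.57, 7.53 and 8.47 in shMsl1_A) did the same. The fibroblast markers had means of 6.69, 7.55 and 7.48 in shNsl1_B, against 6.57, 7.33 and 7.13 in shMsl1_A, and H2bc1 ran the other way, at 9.12, 7.23 and 5.51 in shNsl1_B, against 9.12, 4.61 and 6.31 in shMsl1_A. For these genes the 3 shcontrol_A arrays and every array numbered 1 were alike, and the remaining 6 arrays stood apart from them. Zfp97, also among the genes with the largest SD in shcontrol_B, did not follow this order. The list medians of the knockdown arrays were 0.08 for fibroblast markers, 0.02 for basement membrane genes and 0.01 for histones. That of the mitochondrial ribosomal proteins was -0.35. Their array means were 8.78, 8.45 and 8.17 in shNsl1_B, against 9.07, 8.67 and 8.69 in shMsl1_A. Replicate 1 was thus the highest in both knockdown groups for this list too. The shRNAs differ as well, so experiment and knockdown cannot be told apart in this median.

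**Figure D5:**
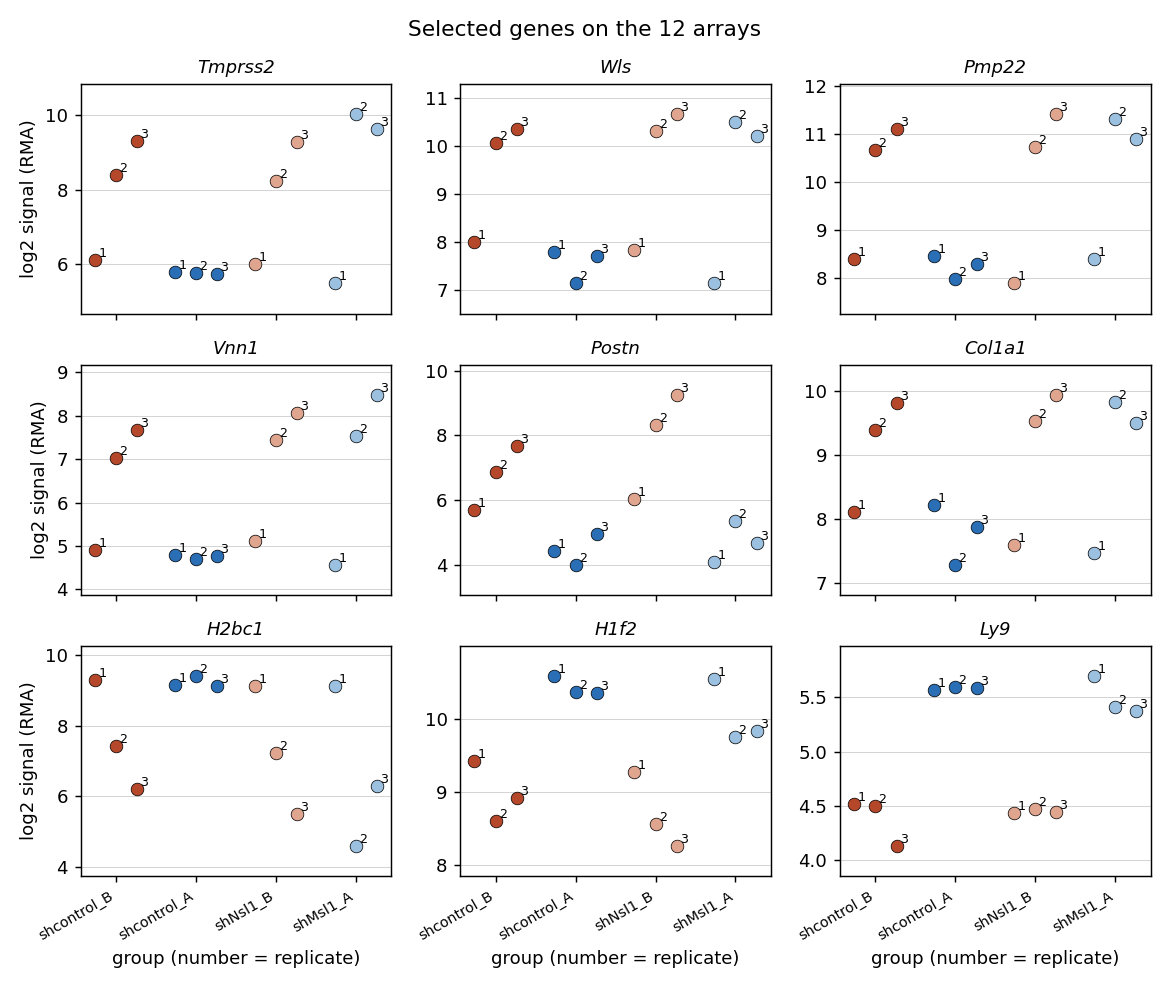
Log2 signals of 9 genes on the 12 arrays by group, with the replicate number beside each point. Tmprss2, Wls, Pmp22, Vnn1 and Col1a1 are high, and H2bc1 low, on replicates 2 and 3 of shcontrol_B, shNsl1_B and shMsl1_A, whereas H1f2 and Ly9 are lower on all arrays of experiment B than on those of experiment A.

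The remaining lists described here are those of chromatin, imprinting and the interferon response. Of 42 imprinted genes 1 was called higher, Usp29 (0.50), and 1 lower, Plagl1 (-0.59). Each made up 2.38%, against 1.51% higher and 4.14% lower over all genes, and the list median was 0.01. Of 36 interferon response genes 1 was called lower (2.78%, against 4.14% of all genes), Ifit2 (-0.69), with a list median of 0.02. Of 30 Polycomb subunits 4 were called lower (13.3%, against 4.14% of all genes), Rbbp4 (-0.55), Ring1 (-0.54), Aebp2 (-0.46) and Cbx2 (-0.51), and 0 higher. The list median was -0.15, but -0.09 without shcontrol_B replicate 2 and -0.03 with quantile normalisation. The Hox clusters, which Polycomb keeps silent in stem cells, had 36 measured genes. Their list means were 5.10 to 5.18 in shcontrol_B and 5.08 to 5.09 in shcontrol_A, below the medians of the control arrays (5.58 to 5.74). No detection call was used, so differences at such dim signals are uncertain. Of these, 2 were called higher (5.56%, against 1.51% of all genes), Hoxa5 (0.57) and Hoxc8 (0.88), and 3 were called lower (8.33%, against 4.14%), Hoxa6 (-0.79), Hoxb3 (-0.53) and Hoxb4 (-0.48). Hoxa5 had 4.69, 4.64 and 4.63 in shcontrol_B, against 4.0, 4.13 and 4.11 in shcontrol_A, and its neighbour Hoxa6 had 5.13, 5.32 and 5.34 in shcontrol_B, against 6.06, 6.12 and 5.97 in shcontrol_A. Of 11 measured members of the NSL complex and 5 of the MSL complex with Mof, limma called 0. At an unadjusted p under 0.05 there were 3 of the NSL complex, 1 of them higher, and 0 of the MSL complex, against 29.3% of all probe sets. The list medians were 0.02 each (-0.01 and -0.06 without shcontrol_A replicate 2).

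The library labelled shcontrol_A replicate 2 also differed from the other controls in genes outside these lists. Dpep2, a dipeptidase, was at 8.97, 9.01 and 9.05 in shcontrol_B, against 9.02, 10.45 and 8.90 in shcontrol_A. A second, dimmer probe set of Dpep2 had 6.05, 6.14 and 5.93 in shcontrol_B, against 5.97, 5.94 and 6.15 in shcontrol_A, and did not show this. The zinc finger genes Zfp985 and Zfp951 were among the most variable in shcontrol_A: Zfp985 had 6.07, 7.11 and 6.96 in shcontrol_B, against 5.88, 8.01 and 7.07 in shcontrol_A, and Zfp951 had 4.52, 4.44 and 4.48 in shcontrol_B, against 4.76, 6.62 and 5.78 in shcontrol_A. In both zinc finger genes the array labelled replicate 2 was the highest of shcontrol_A. Zfp97 varied in both groups, at 4.60, 6.98 and 6.92 in shcontrol_B, against 5.53, 7.61 and 6.76 in shcontrol_A, with replicate 1 lowest in each.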

How the data were processed

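The authors processed the scans in Affymetrix Expression Console 1.1 with the RMA method (background correction, quantile normalisation and summary over the probes of a probe set) and deposited the log2 signals. The sources used here do not say if both experiments were normalised together. Values were used as deposited, without a filter; precision is set by the small number of arrays. shcontrol_B was compared with shcontrol_A by two-sided tests of limma 3.58.1 (lmFit, eBayes; R 4.3.3) without covariates on the 6 control arrays, with Benjamini-Hochberg adjustment over 41345 probe sets and a threshold of 0.05. The fits were tested on simulated data. A gene stood for its probe set with the highest mean over 12 arrays among those with 1 symbol in the platform annotation; older names were matched through RefSeq (GRCm38.p6). The members and lists were chosen with earlier results of these data known. Named genes are the targeted genes, up to 12 called genes per direction with the largest differences and no overlap, up to 5 members of a list with the smallest p, a fixed set of marker genes and up to 6 genes with the largest SD per group. Small RNAs and provisional gene models were left unnamed. Replicate numbers are shared by the labels. Deviations of same-numbered shcontrol_B and shcontrol_A arrays from their group means correlated at 0.23, 0.11 and 0.24. Between shNsl1_B and shMsl1_A the values were 0.74, 0.27 and 0.56. There, shNsl1_B replicate 2 correlated at 0.29 with shMsl1_A replicate 3, and shNsl1_B replicate 3 at 0.58 with shMsl1_A replicate 2. The labels do not say what a number shares, and the main fit is unpaired. Only the fits with the replicate number as a block treat the numbers as pairs. Fold change rank ordering statistics (FCROS), the method of the study, was rewritten with 9 pairs and a trim of 0.25.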

Additional observations from a re-analysis of the deposited data

Results flagged for a closer look

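In a fit of all 12 arrays, chosen after the data were seen, the difference between the experiment effect of the controls (shcontrol_B minus shcontrol_A) and that of the knockdown arrays (shNsl1_B minus shMsl1_A) passed an adjusted p of 0.05 (limma) for 4 probe sets, with 2668 (6.45%) at an unadjusted p under 0.05. The 4 genes, named after their values were seen, were Pcbd1 (difference of effects 1.49, adjusted p = 0.0212), Gstk1 (1.42), Morn4 (1.28) and Zc4h2 (1.18), each of the last 3 with an adjusted p of 0.0417. Pcbd1, an enzyme that recycles tetrahydrobiopterin, had 7.67, 7.45 and 7.59 in shcontrol_B and 8.12, 8.27 and 8.17 in shcontrol_A. On the knockdown arrays Pcbd1 had 6.43, 6.35 and 6.14 in shNsl1_B, but 8.38, 8.45 and 8.41 in shMsl1_A. Gstk1, a mitochondrial and peroxisomal glutathione S-transferase, had 8.49, 8.78 and 8.39 in shcontrol_B and 8.72, 8.91 and 8.93 in shcontrol_A, but 7.22, 7.32 and 7.07 in shNsl1_B and 8.94, 8.90 and 8.94 in shMsl1_A. In these 4 genes the 3 shNsl1_B arrays were the lowest of all 12.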

How the results depend on the processing

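The number of probe sets called between the controls was 2238. Leaving out 1 array gave 0 to 8382, and 0 remained with the replicate block or with probe sets at or above the median signal alone (limma, smallest adjusted p 0.0777 and 0.0733, 12113 and 5385 at an unadjusted p under 0.05). FCROS, without adjustment, called 125 (24.8% of them higher, against 37.5% in limma). Without shcontrol_B replicate 1, 47.2% of calls were higher. A threshold of 0.1 gave 6767 and the fit of all 12 arrays without shcontrol_A replicate 2 gave 1114, both chosen after the data were seen. Median centring (1664), new quantile normalisation (1591), all 12 arrays (3230), probe sets with 1 symbol (2917) and a robust trended prior (2483) stayed within 1.5 times. Between the knockdown arrays the count was 1144, it was 0 to 0 without 1 array, 212 after median centring and 2611 with the block. The difference of Msl1 ranged from 0.17 to 1.03 without 1 array. Between the experiments the median distance of arrays was 0.25, and 0.31 over probe sets at or above the median signal. After median centring 38 of 46 list medians kept their sign, without any 1 array 35, and the 11 that did not include the MSL, NSL, imprinted, interferon and endothelial lists. New quantile normalisation moved 14 of the 46 medians by more than the SD of their array means within a group. The 24 called genes with the largest differences lost their call with the block or without any 1 of the 5 arrays other than shcontrol_B replicate 1, while 9 lost it in the fit of all 12 arrays.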

Other observations

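A list of 85 small nuclear and nucleolar RNA genes, made after the values were seen, had array means of 8.89, 9.17 and 9.12 in shcontrol_B, against 8.82, 10.05 and 8.68 in shcontrol_A, so that shcontrol_A replicate 2 was the highest of the 6 control arrays. The median difference was -0.15 with that array and 0.25 without it, and limma called 0 of these genes. By the unadjusted p under 0.05, 5 were higher and 3 lower, against 29.3% of all probe sets in either direction. Probe sets with a mean signal at or above the median held 266 of the 839 calls in the higher direction and 665 of the 1399 in the lower direction.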
